A study of Drosophila melanogaster with 12 samples.

Results

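The muscle sarcomere genes were followed on Affymetrix arrays of adult and larval fruit flies (Drosophila melanogaster), in wild type and after knockdown of selenophosphate synthetase 2. They were chosen by name: a list of 30 genes for thick and thin filament proteins, troponins, titin-like proteins and Z-disc proteins, each measured by the probe sets whose annotation gives that gene as the only symbol. Of the 30 genes, 24 had such a probe set (36 probe sets), among 11982 genes on the array with 1. Mhc, Act57B, Tm1, wupA, TpnC25D and TpnC47D had none and were not analysed here. Unc-89, the obscurin gene, was found under its RefSeq symbol Obsc.

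A sarcomere is the contractile unit of striated muscle. Thick filaments of myosin slide along thin filaments of actin, which are anchored in Z-discs, and calcium binding to troponin C releases the block that troponin and tropomyosin place on the thin filament. Insects build these units from stage-specific and muscle-specific parts: the indirect flight muscles and the jump muscle of the adult use their own actins, troponin C proteins and flightin, and the body wall muscles of the larva use others.

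The study crossed stage with genotype, with 3 arrays in each of 4 groups: adult wild type, adult knockdown, larval wild type and larval knockdown, 12 arrays in all. Total RNA of fruit flies was labelled; the body part, sex, age, wild-type line and means of knockdown are not given. The labels call the 3 arrays of a group biological replicates. Values are MAS5 signals, on which each array was scaled to a common mean. Signals are printed on the linear scale, and differences as log2 fold changes with the standard error (SE) of a limma fit over all 12827 probe sets tested. A gene is called where its p-value, adjusted over those probe sets by the Benjamini-Hochberg method, is under 0.05.

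Sps2 itself read 113.4 to 137.9 on the adult knockdown arrays and 878.4 to 919.6 on the adult wild-type arrays, and 138.0 to 188.3 against 717.7 to 830.4 in larvae. The median log2 signal of an array was 6.37 to 6.48 in adult knockdown, 6.69 to 6.77 in adult wild type, 6.03 to 6.16 in larval knockdown and 5.95 to 6.04 in larval wild type, so the adult genotypes differed in this median without overlap. The difference between the 3' and 5' control probe sets of actin and GAPDH (log2), a measure that rises as labelled RNA gets shorter, was 1.90 ± 0.05 (SD, n = 3) in adult knockdown and 1.92 ± 0.07 in adult wild type. In larvae it was 3.05 ± 0.07 with the knockdown and 2.72 ± 0.13 without. Its part in the results was not tested.

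Levels of the sarcomere genes differed between the stages, and they did so in both genotypes. In wild type, 5 of the 23 genes tested were higher in adults and 18 were lower, with a median log2 difference of -2.16 over the 23 genes against 0.51 over all probe sets tested. With the knockdown the counts were again 5 and 18, from other arrays, with medians of -2.04 and 0.43. Adult and larval arrays did not overlap for any of the 23 genes in either genotype. Most of the transcriptome differed between the stages too: in wild type 81.7% of probe sets were called, 53.3% higher and 28.4% lower in adults, and 85.1% did not overlap. With the knockdown the shares were 81.3%, 50.3%, 30.9% and 84.3%. These are bulk samples, in which fewer muscle cells and less RNA per cell cannot be told apart.

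**Figure D1:**
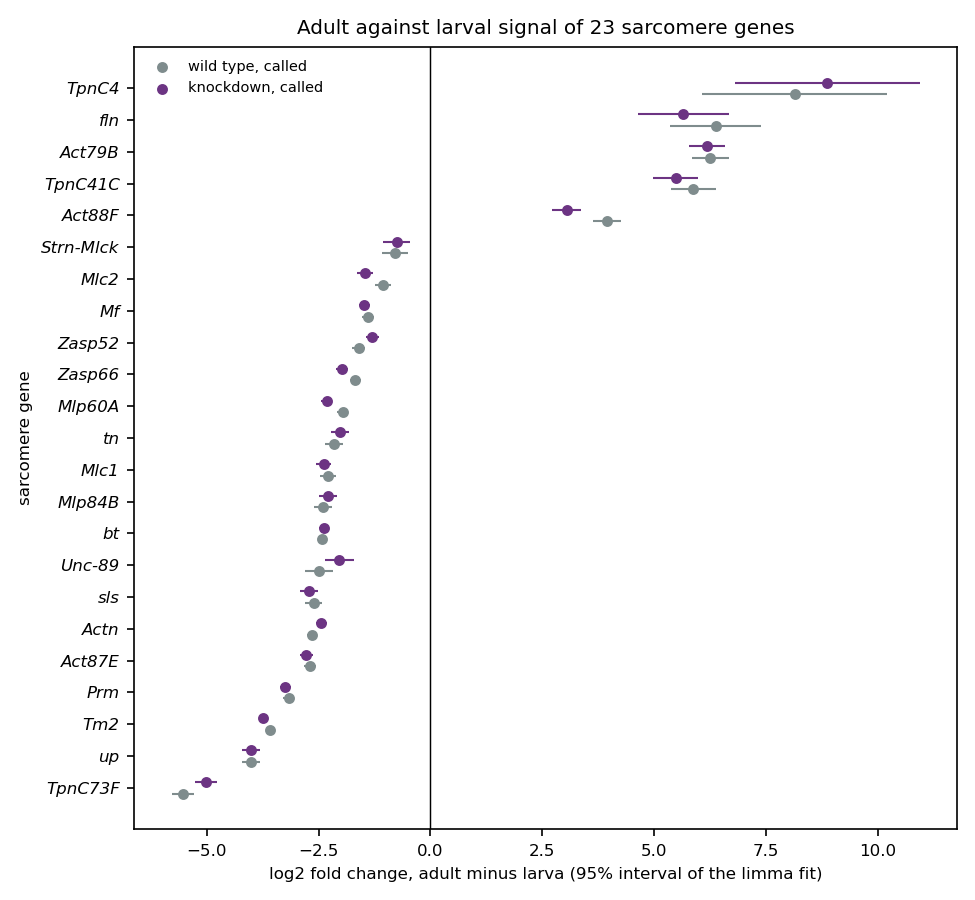
Adult against larval log2 difference of 23 sarcomere genes (rows) in wild type and knockdown, with the 95% interval of the limma fit; all points are called. In both genotypes 5 genes lie to the right of 0 (higher in adults) and 18 to the left.

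The 5 adult-high genes were the whole flight and jump muscle class of the list. Probe sets were tested where they were at or above the 40th percentile of the array on at least 3 arrays. TpnC4, Act79B, fln and TpnC41C would not have passed this filter without the adult arrays, where they were high. Their stage p-values are therefore no independent support, and the lists were chosen with earlier results of these data known. TpnC4, the troponin C of stretch-activated flight muscle, read 2226, 2169 and 2176 on the adult wild-type arrays and 2343, 2177 and 2337 on the adult knockdown arrays. In larvae it read 28.0, 2.91 and 5.84 in wild type and 5.11, 1.00 and 23.3 with the knockdown, all below the 40th percentile of the array, which lay between 34.2 and 41.9 on the 12 arrays. Larval levels this low have no order, and a fold against them is a lower bound, taken against that percentile: TpnC4 was at least 61.4-fold higher in adult wild type than in larval wild type, and at least 59.9-fold with the knockdown (limma adjusted p = 4.3e-06 and 1.8e-06, n = 3 per group).

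Act79B, the actin of the jump muscle and other tubular adult muscles, read 2270, 2075 and 2519 in adult wild type and 1682, 1799 and 2028 in adult knockdown. In larvae it read 36.8, 25.4 and 28.8, and 20.5, 34.0 and 23.2 with the knockdown. It was at least 63.9-fold higher in adults in wild type and at least 48.0-fold with the knockdown (adjusted p = 1.7e-11 and 1.5e-11). Adult and larval arrays lay far apart, while the larval arrays of both genotypes overlapped near background.

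Flightin (fln), a myosin-binding thick filament protein of the indirect flight muscle, read 1507, 1539 and 1587 in adult wild type and 1385, 1324 and 1393 in adult knockdown. Its larval signals were 6.49, 31.1 and 32.5 in wild type and 35.0, 21.6 and 26.9 with the knockdown. The adult level was at least 43.3-fold higher in wild type and at least 35.9-fold with the knockdown (adjusted p = 4.7e-08 and 1.4e-07). The larval wild-type array at 6.49 stood well below its group, and adult and larval arrays lay far apart.

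TpnC41C, another troponin C of flight and jump muscle, read 1278, 1281 and 1425 in adult wild type and 1270, 1126 and 1488 in adult knockdown, with both genotypes overlapping. In larvae it read 29.4, 20.6 and 19.2, and 19.9, 32.4 and 37.5 with the knockdown. It was at least 37.2-fold and 33.7-fold higher in adults in the 2 genotypes (adjusted p = 1.5e-10 and 2.1e-10).

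Act88F, the main actin of the indirect flight muscle, had the smallest stage difference of the 5. It read 524.4, 573.9 and 604.5 in adult wild type and 404.9, 427.9 and 378.6 in adult knockdown. Its larval arrays, at 30.5, 42.9 and 38.5 in wild type and 49.0, 49.2 and 49.0 with the knockdown, lay near the 40th percentile: 1 of the 3 wild-type arrays, replicate 1, was below it and the others above. It was 15.4-fold higher in adults in wild type (log2 3.94, SE 0.14) and 8.22-fold with the knockdown (log2 3.04). The wild-type fold is against the mean log2 signal of all 3 larval arrays, replicate 1 among them.

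The body wall class fell on the other side. Of its 5 listed genes, 2 were measured, and both were lower in adults. TpnC73F, the troponin C of larval and other non-flight muscles, read 183.6, 185.5 and 190.2 in adult wild type against 8612, 8499 and 8787 in larval wild type, 46.3-fold lower in adults (log2 -5.53, SE 0.11, adjusted p = 7.0e-13). This was the largest fall among the 23 genes. With the knockdown, adult arrays at 203.1, 153.8 and 227.7 and larval arrays at 6764, 6204 and 5726 gave a log2 difference of -5.01. A second TpnC73F probe set, 1632439_at, did not pass the filter. It read 15.0, 16.3 and 22.1 in larval wild type and 5.30, 16.6 and 22.4 in adult wild type. Act87E, a larval and adult body wall actin, read 2036, 1791 and 2019 in adult wild type and 12253, 13389 and 12130 in larval wild type, 6.47-fold lower in adults. Its knockdown arrays read 2017, 1816 and 2038 in adults and 13577, 13808 and 12739 in larvae. The actin genes are close in sequence, and their probe sets could in part read each other's transcripts.

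**Figure D2:**
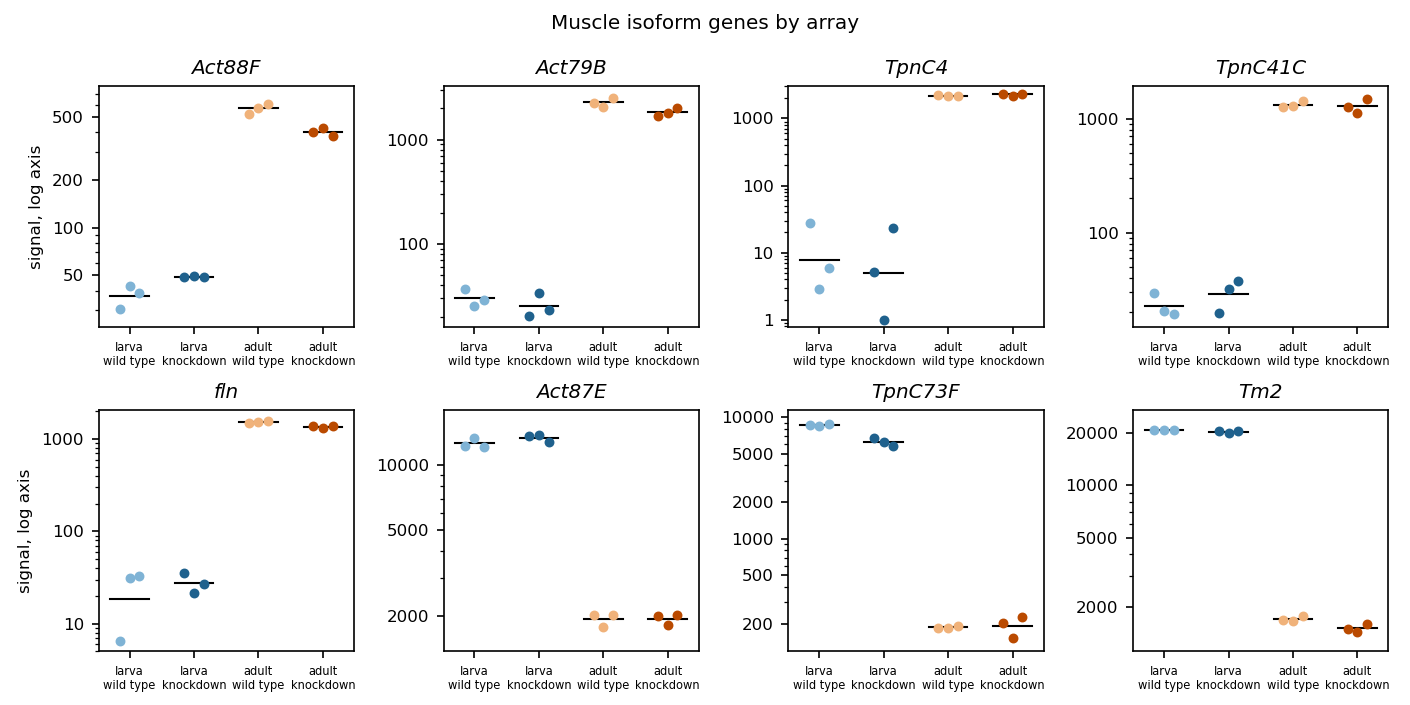
MAS5 signal (log axis) of 8 sarcomere genes on each of 12 arrays, by stage and genotype; points are arrays and lines are geometric means. Act88F, Act79B, TpnC4, TpnC41C and fln are high in both adult groups and at or near background in larvae, and Act87E, TpnC73F and Tm2 are higher in larvae.

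The other 16 genes, shared by muscle types, were all lower in adults in both genotypes. Among thin filament genes, troponin T (up), which holds the troponin complex on tropomyosin, read 707.5, 749.5 and 712.1 in adult wild type against 12108, 11239 and 11448 in larval wild type, 16.0-fold lower (log2 -4.00, SE 0.09). Tropomyosin 2 (Tm2) read 1691, 1666 and 1784 against 20767, 20720 and 20611, 12.1-fold lower (log2 -3.60, SE 0.04). Among thick filament genes, paramyosin (Prm), a core protein of the filament, read 1710, 1904 and 1885 against 17482, 15335 and 16574, 8.98-fold lower. No adult array came near a larval one for these genes.

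The light chains fell by unequal amounts. The essential light chain Mlc1 was 4.90-fold lower in adult wild type (log2 -2.29) and the regulatory light chain Mlc2 2.09-fold (log2 -1.07). Myofilin (Mf), a thick filament core protein, was 2.63-fold lower. The titin-like and kinase genes ranged from log2 -0.79 for Strn-Mlck to -2.61 for sls, with bt at -2.42 and Unc-89 at -2.49. Of the Z-disc and LIM genes, alpha-actinin (Actn), which cross-links actin in the Z-disc, was lowest in adults relative to larvae at log2 -2.65, and Zasp52 differed least at -1.60; Mlp84B, tn, Mlp60A and Zasp66 lay between. Zasp67, another member of the Zasp family of Z-disc proteins, read 12.3 to 38.1 over the 12 arrays and did not pass the filter on low values.

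The 5 higher and 18 lower genes were called in the same numbers under quantile normalization and under both median centrings, although these moved the median of all probe sets in wild type from 0.51 to between -0.29 and 0.09. The mean over all probe sets of a gene moved 1 gene, Strn-Mlck, to the higher side, at log2 0.74 in wild type and 1.00 with the knockdown.

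Knockdown against wild type gave much smaller differences. In adults 9 of the 23 genes were called lower and none higher (limma; 11 had an unadjusted p under 0.05), or 39.1% of the genes, against 29.0% of all probe sets called in that comparison, 15.4% lower and 13.6% higher. The median over the 23 genes was -0.17, against -0.04 over all probe sets. The groups did not overlap for 11 of the 23 genes, fewer in proportion than the 58.2% of all probe sets. The adult split depended on the scaling: centring each array on the median of all its probe sets moved the median of all probe sets tested to 0.24 and that of the 23 genes to 0.11, and the counts became 5 higher and 1 lower, Zasp66 (-0.14, adjusted p = 0.046). With centring over the tested probe sets, added after the data were seen, they were 2 higher and 5 lower, and with quantile normalization 2 and 7. Every fall below is relative to the MAS5 scale. By class, 8 of the 16 shared genes were called lower (median -0.18), as was 1 of the 5 flight and jump muscle genes (median -0.18) and neither body wall gene.

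**Figure D3:**
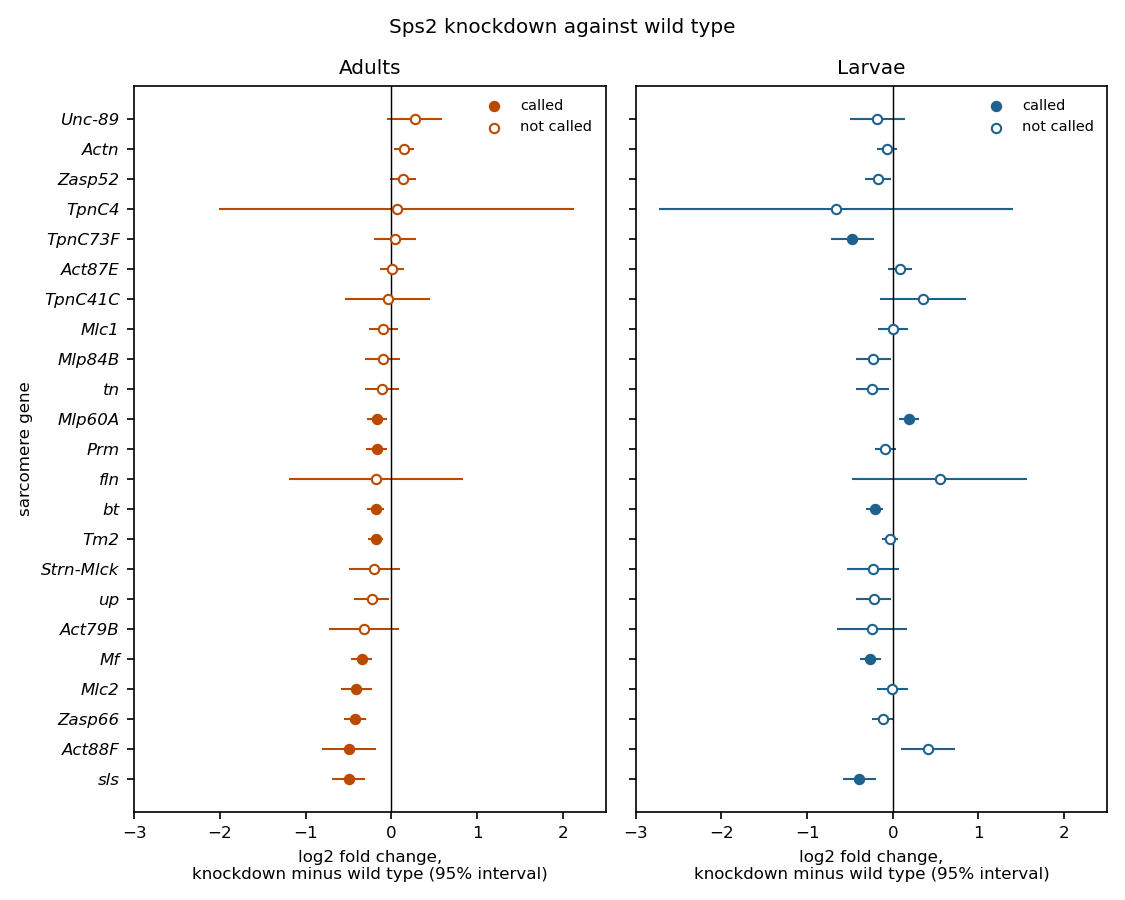
Knockdown against wild type, log2 difference of 23 sarcomere genes in adults (left) and larvae (right) with the 95% interval of the limma fit; filled points are called. In adults 9 genes are lower and none higher, and in larvae 4 are lower and 1 is higher; centring on the array median turned the adult counts to 1 lower and 5 higher.

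Among the thick filament genes, Mlc2 read 1405, 1359 and 1482 in adult knockdown and 1817, 1832 and 1987 in adult wild type. All 3 knockdown arrays lay below all wild-type arrays, a fall of 1.33-fold (log2 -0.41, SE 0.08, adjusted p = 0.0032). Centring on the median of all probe sets ended the Mlc2 call (-0.13, adjusted p = 0.27). Mlc1, its partner on the same myosin head, read 3845, 4002 and 4591 against 4010, 4663 and 4576, with overlap, and was not called (log2 -0.09, 95% interval -0.26 to 0.08). Mf read 8436, 7454 and 8624 against 10156, 10296 and 10673, without overlap (log2 -0.35, SE 0.06, adjusted p = 0.00082). A second Mf probe set gave -0.28 and was called too. The call of the brightest Mf probe set was lost with centring on the median of all probe sets (-0.07, adjusted p = 0.38).

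Prm read 1694, 1549 and 1644 in adult knockdown and 1710, 1904 and 1885 in adult wild type. The highest knockdown array came within 1% of the lowest wild-type array, and the fall was 1.12-fold (log2 -0.17, SE 0.06, adjusted p = 0.040). The call was lost at adjusted p between 0.0505 and 0.156 without adult knockdown replicate 2 or 3, adult wild-type replicate 2 or 3, larval knockdown replicate 2 or larval wild-type replicate 3. Median centring over all probe sets turned the difference to 0.11, and a second Prm probe set read -0.05 and was not called.

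Flightin was lower on all 3 adult knockdown arrays than on any adult wild-type array, by log2 -0.18. It was not called in the fit over 12 arrays, whose error also takes in the spread of its near-background larval signals (SE 0.47). Fitted on the adult arrays alone, the same difference had an SE of 0.05 and an adjusted p of 0.0128.

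Of the thin filament genes, Act88F was lower on all adult knockdown arrays, at the signals given above, by 1.41-fold (log2 -0.49, SE 0.14, adjusted p = 0.024). Its adjusted p was between 0.0526 and 0.0986 when any of adult knockdown replicates 1, 2 or 3 or adult wild-type replicates 2 or 3 was left out. On the adult arrays alone it was 0.0011, with quantile normalization 0.055, and with centring on the median of all probe sets 0.32 (-0.21). Act79B did not overlap between the genotypes either (log2 -0.32, SE 0.19, adjusted p = 0.23), and was called lower on the adult arrays alone (adjusted p = 0.0128). Tm2 read 1496, 1444 and 1588 against 1691, 1666 and 1784, without overlap, a fall of log2 -0.18 (SE 0.04, adjusted p = 0.0060), which median centring over all probe sets turned to 0.10. Act87E overlapped and was not called (log2 0.01, 95% interval -0.13 to 0.15), except as higher with centring on the median of all probe sets (0.29, adjusted p = 0.0031).

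No troponin gene was called in adults. TpnC4, TpnC41C and TpnC73F had log2 differences of 0.06, -0.04 and 0.04, each with overlap, although TpnC73F was called higher with quantile normalization (0.27, adjusted p = 0.044) and with centring on the median of all probe sets (0.32, 0.020). Troponin T (up) read 739.1, 552.5 and 578.6 in adult knockdown against 707.5, 749.5 and 712.1 (log2 -0.23, adjusted p = 0.092). Adult knockdown replicate 1 lay within the wild-type range, and without it the difference was -0.35 with an adjusted p of 0.0033.

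The titin-like genes held the largest fall among the 9 called in adults. Sallimus (sls), the titin-related spring that ties the Z-disc to the thick filament, read 404.9, 430.6 and 423.4 in adult knockdown and 529.7, 575.0 and 685.3 in adult wild type. The groups did not overlap, with a 1.41-fold fall (log2 -0.50, SE 0.09, adjusted p = 0.0013). With centring on the median of all probe sets sls was not called (-0.22, adjusted p = 0.062). Projectin (bt), a titin-like kinase along the thick filament, read 3197, 3263 and 3266 against 3574, 3732 and 3730, a fall of log2 -0.18 (SE 0.05, adjusted p = 0.010), which median centring over all probe sets turned to 0.10. Unc-89, a giant M-line kinase, read 375.5, 286.1 and 313.7 against 255.7, 234.5 and 320.1, with overlap, and was not called (log2 0.27, 95% interval -0.05 to 0.59). It was called higher with quantile normalization (0.40, adjusted p = 0.037) and with centring on the median of all probe sets (0.55, 0.0040).

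Z-disc genes differed among themselves. Zasp66, a PDZ and LIM family Z-disc protein, read 3929, 3354 and 4019 in adult knockdown and 4978, 4952 and 5131 in adult wild type, without overlap, a fall of 1.34-fold (log2 -0.42, SE 0.06, adjusted p = 0.00026). It was the gene called lower in adults under all 21 alternatives. Its family member Zasp52 read 3387, 3190 and 3419 against 2834, 2989 and 3267, and Actn read 2298, 2215 and 2296 against 1962, 2240 and 1975. Both overlapped, with log2 differences of 0.14, and were not called (adjusted p = 0.16 and 0.064), but Actn was called higher without adult wild-type replicate 2 (0.21, adjusted p = 0.011), and both were called higher under both median centrings.

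Mlp60A, a muscle LIM protein, read 4767, 4780 and 5344 in adult knockdown and 5364, 5501 and 5791 in adult wild type, a fall of log2 -0.16 (SE 0.05, adjusted p = 0.041). The highest knockdown array nearly touched the lowest wild-type array. The call was lost at adjusted p between 0.0503 and 0.153 without adult knockdown replicate 1 or 2, any adult wild-type replicate, or larval knockdown replicate 2, and median centring over all probe sets turned the difference to 0.12. Mlp84B, the other muscle LIM gene, and tn, the fly TRIM32 protein of muscle maintenance, were not called (log2 -0.10 and -0.11). Without adult knockdown replicate 3, Mlp84B was called at -0.23 (adjusted p = 0.034).

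**Figure D4:**
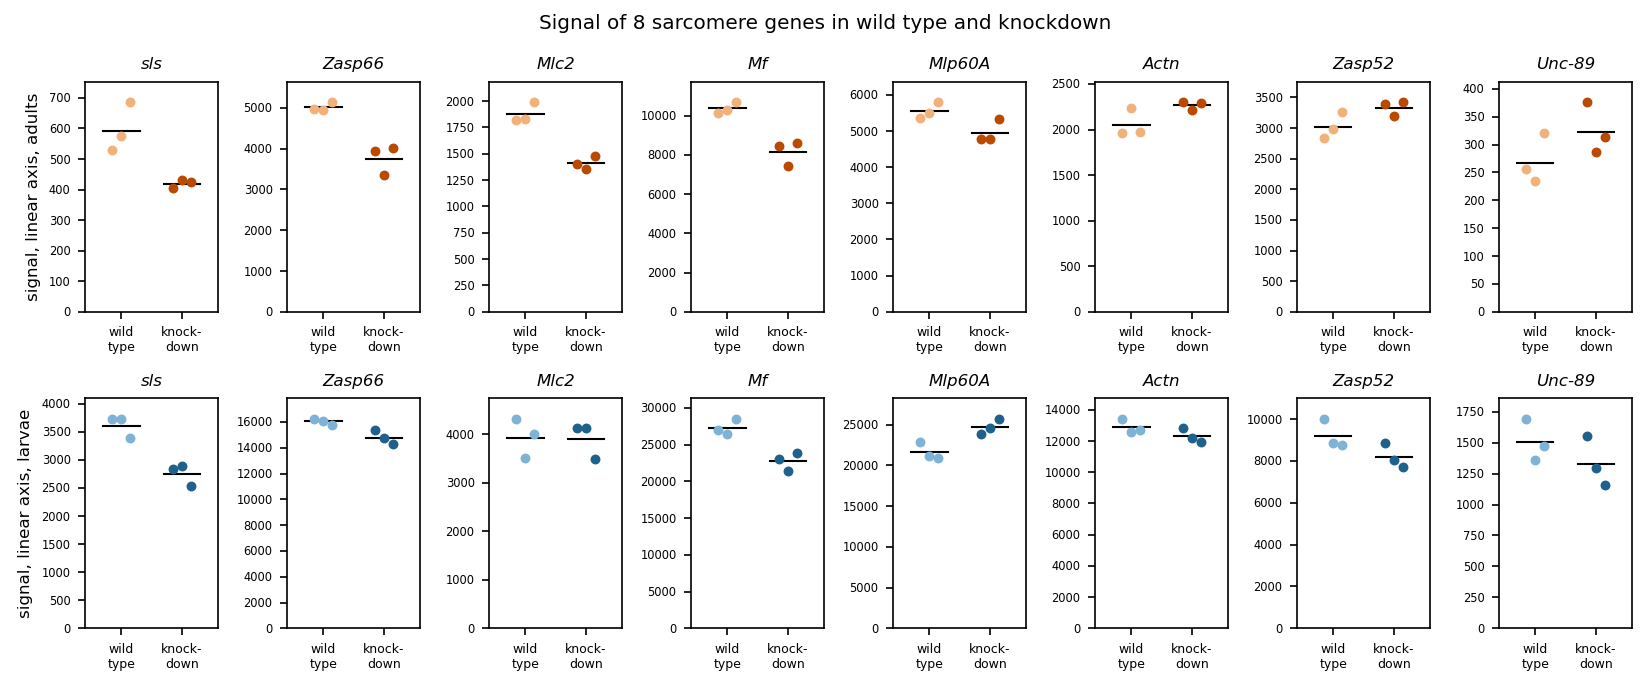
MAS5 signal (linear axis from 0) of 8 sarcomere genes on each array, adults above and larvae below; points are arrays and lines geometric means. In adults sls, Zasp66, Mlc2, Mf and Mlp60A lie lower on every knockdown array, while Actn, Zasp52 and Unc-89 overlap between the genotypes. Centring on the median of all probe sets left only Zasp66 called lower in adults, and turned the Mlp60A difference to 0.12.

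In larvae 4 genes were called lower with the knockdown and 1 higher, 21.7% of the 23, against 25.6% of all probe sets, 10.7% lower and 15.0% higher. The median over the 23 genes was -0.17 against 0.04 over all probe sets, and the groups did not overlap for 10 genes, against 35.4% of all probe sets. Centring on the median of all probe sets gave 9 lower and none higher, and centring over tested probe sets 7 and none. The larval knockdown arrays also had the larger 3' to 5' difference given above, and its part in these falls was not tested.

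TpnC73F, the larval troponin C, had the largest of the 4 falls. It read 6764, 6204 and 5726 with the knockdown and 8612, 8499 and 8787 in wild type, without overlap, a 1.39-fold fall (log2 -0.47, SE 0.11, adjusted p = 0.0091). Sls read 2846, 2884 and 2542 against 3724, 3730 and 3390, also without overlap (log2 -0.39, SE 0.09, adjusted p = 0.0063). Mf read 22996, 21380 and 23891 against 26990, 26434 and 28479, a fall of log2 -0.26 (SE 0.06, adjusted p = 0.0051). In each of these genes all 3 knockdown arrays were below all wild-type arrays. Bt fell by less, at 17590, 16994 and 16263 against 20888, 19304 and 18727 (log2 -0.21, SE 0.05, adjusted p = 0.0045). These 4 genes were called lower in larvae under all 21 alternatives.

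Mlp60A rose in larvae, at 23834, 24570 and 25709 against 22933, 21110 and 20922 (log2 0.19, SE 0.05, adjusted p = 0.022). The lowest knockdown array stood just above the highest wild-type array, larval wild-type replicate 1. The call was lost at adjusted p between 0.0708 and 0.0756 without larval knockdown replicate 3 or larval wild-type replicate 2 or 3, at 0.0556 on the larval arrays alone, and under both median centrings. Act88F read slightly higher with the knockdown without overlap (log2 0.41, adjusted p = 0.056), at signals close to the 40th percentile, and was called without larval wild-type replicate 2 (0.52, adjusted p = 0.024).

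Mf, sls and bt were the 3 genes called lower in both stages, from separate arrays but in 1 fit with a shared estimate of the spread. Centring on the median of all probe sets ended their adult calls (-0.07, -0.22 and 0.10). The share of all probe sets called lower in both stages is not given here. The other larval genes were not called: Mlc1, Mlc2 and Tm2 had log2 differences of 0.00, -0.01 and -0.03, up, tn, Mlp84B and Strn-Mlck between -0.22 and -0.24, and Zasp66 at -0.12. Some of these passed when 1 array was left out: tn at -0.32 without larval knockdown replicate 1 (adjusted p = 0.021) and at -0.30 without larval wild-type replicate 3 (0.045), Zasp52 at -0.22 (0.043) and TpnC41C at 0.62 (0.033) without larval knockdown replicate 1. With adult knockdown replicate 1, 2 or 3 left out of the shared fit, up (0.020), Zasp66 (0.044) and Mlp84B (0.020), in that order, were called lower at unchanged differences.

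The knockdown effect itself was then compared between the stages, as the effect in adults minus that in larvae, which is also the stage difference with the knockdown minus that in wild type. Of the 23 genes 6 were called, 26.1%, against 20.8% of all probe sets. In 2 the difference was above 0, against 7.87% of all probe sets, and in 4 below 0, against 12.9%. The median was -0.08, and -0.06 over all probe sets. Under centring on the median of all probe sets the counts became 12 above and 0 below, with the median of all probe sets at 0.30.

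Act88F differed most, at log2 -0.90 (SE 0.20, adjusted p = 0.0097): lower with the knockdown in adults and slightly higher, near background, in larvae. Mlp60A followed with -0.35 (SE 0.08, adjusted p = 0.0078), lower in adults and higher in larvae, although median centring over all probe sets turned this to 0.01. Both calls held with each array left out in turn; centring on the median of all probe sets ended that of Act88F (-0.54, adjusted p = 0.077). Mlc2, at -0.40 (adjusted p = 0.031), was called lower in adults and not in larvae, and Zasp66, at -0.30 (adjusted p = 0.024), fell more in adults, which median centring over all probe sets turned to 0.06. TpnC73F, at 0.52 (adjusted p = 0.040), was called lower in larvae and not in adults. Zasp52 read 0.31 (adjusted p = 0.045), from 0.14 in adults to -0.17 in larvae.

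Single arrays moved 4 of these calls. Mlc2 lost it at adjusted p between 0.0514 and 0.0783 without adult knockdown replicate 1 or 2, adult wild-type replicate 2 or 3, larval knockdown replicate 1 or 2, or larval wild-type replicate 2. TpnC73F lost it at 0.0604 to 0.0877 without any array but adult knockdown replicate 2 and larval knockdown replicate 1. Zasp52 lost it at 0.0552 to 0.105 without any array but adult wild-type replicate 3, larval knockdown replicate 1 and larval wild-type replicates 2 and 3. Zasp66 lost it without adult wild-type replicate 3 (0.0604) or larval knockdown replicate 1 (0.0501). In the other direction, Tm2 was called without adult knockdown replicate 3 (-0.19, adjusted p = 0.038) and Actn without adult wild-type replicate 2 (0.27, adjusted p = 0.017).

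Genes with several probe sets showed where the probe sets of a gene did not move as 1. Strn-Mlck, which encodes stretchin and myosin light chain kinase products and has a flight muscle isoform, was the clearest. Its brightest probe set, 1634574_a_at, read 651.8, 458.9 and 559.9 in adult wild type and 994.4, 889.0 and 985.1 in larval wild type, 1.73-fold lower in adults. Probe set 1630501_a_at read 372.7, 393.9 and 402.4 in adult wild type but 38.7, 25.9 and 17.1 in larval wild type, at least 10.9-fold higher in adults (adjusted p = 2.0e-08). The stage difference thus had opposite signs in these probe sets, although 1630501_a_at too would not have passed the filter without the adult arrays. Which transcripts each reads was not analysed here.

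The same probe set, 1630501_a_at, read higher with the knockdown in adults. It read 620.4, 639.8 and 660.1 on the knockdown arrays, all above the wild-type arrays, a 1.64-fold difference that missed the threshold (log2 0.72, SE 0.26, adjusted p = 0.060). The brightest Strn-Mlck probe set gave -0.20 in adults with overlap (adjusted p = 0.31). The remaining one, 1624063_at, was dim everywhere, at 69.6, 67.9 and 61.1 in larval wild type and 30.6, 22.4 and 44.7 in larval knockdown, at least 1.73-fold lower with the knockdown (adjusted p = 0.032).

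**Figure D5:**
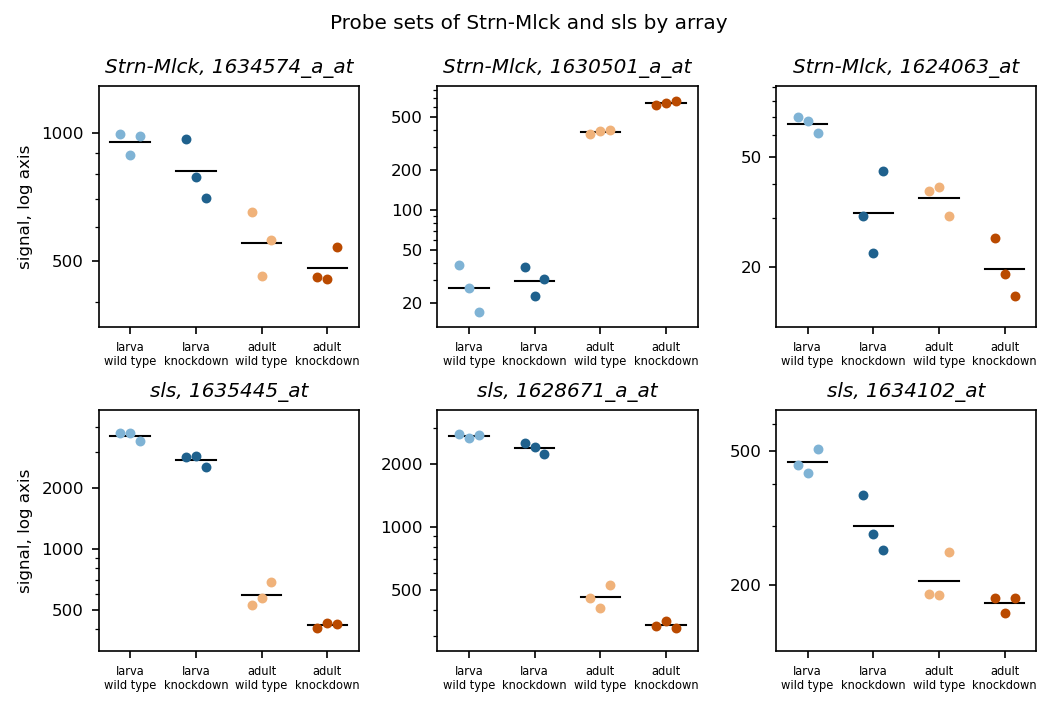
MAS5 signal (log axis) of 3 Strn-Mlck and 3 sls probe sets on each array; points are arrays and lines geometric means. Strn-Mlck probe set 1630501_a_at is high in adults and at background in larvae, opposite to 1634574_a_at, while all 3 sls probe sets are lower in adults and lower on average with the knockdown in both stages.

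All 3 sls probe sets had differences below 0 at both stages. Beside the brightest, 1628671_a_at gave -0.45 in adults (adjusted p = 0.0021) and -0.20 in larvae (0.11), and 1634102_at gave -0.22 in adults (0.32) and -0.63 in larvae (0.010). Prm, whose gene also makes miniparamyosin, had a second probe set, 1632854_s_at, that was called lower in larvae (-0.35, adjusted p = 0.0054), where the brightest was not (-0.09). The second Mf probe set missed the threshold in larvae (-0.10, adjusted p = 0.16). Zasp66 probe set 1629383_a_at was called lower in both stages, at -0.17 in adults and -0.22 in larvae, and showed no stage dependence (0.04, adjusted p = 0.75). A dim Mlp60A probe set, 1626709_at, went against the bright one in adults: it read 63.6, 79.8 and 85.0 with the knockdown and 29.3, 49.5 and 34.6 in wild type, at least 1.88-fold higher (adjusted p = 0.033). Its mean log2 signal was 6.24 in adult and 6.02 in larval knockdown, against the stage direction of the bright one. A dim Zasp66 probe set, 1631326_at, went against its brightest between the wild-type stages, at mean log2 6.21 in adults and 5.82 in larvae. With the knockdown it had means of 5.53 and 5.89. Its adult knockdown arrays, at 44.3 to 48.1, lay below the adult wild-type arrays, at 58.1 to 92.0.

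Genes that build, attach or drive the sarcomere were taken from 6 further lists, and each is given as genes called of genes tested, to be read beside the shares of all probe sets: 13.6% higher and 15.4% lower in adults, 15.0% higher and 10.7% lower in larvae. Counts this small on lists of 1 to 13 genes show nothing particular to a list. Their median adult differences were -0.47 for transcription, splicing and fusion genes and between -0.16 and 0.06 for the other lists, and their median larval differences lay between -0.10 and 0.10. Centring on the median of all probe sets raised the adult counts, to 6 higher and none lower in the assembly list, 5 and none in the calcium list, and 7 and none each in the attachment and glycolysis lists. In larvae the glycolysis counts, 3 higher and 2 lower as tested, became 0 and 5 with that centring, 1 and 4 with centring over tested probe sets and 1 and 3 with quantile normalization. Among genes that assemble filaments and fold myosin, 4 of 11 were higher and 3 lower in adult knockdown, and 3 were lower in larvae. Unc-45, the chaperone that folds myosin heads, read 234.1, 225.7 and 227.8 in adult knockdown against 367.4, 355.1 and 294.2 (log2 -0.56, adjusted p = 0.0015). In larvae it read 435.0, 419.5 and 422.7 against 616.2, 513.0 and 598.3 (log2 -0.43, adjusted p = 0.0076). All knockdown arrays lay below all wild-type arrays at both stages; the adult fall was not called under centring on the median of all probe sets (-0.28), while the larval one was called under all 3 other scalings.

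The chaperones stv (Starvin, a co-chaperone of muscle maintenance) and l(2)efl (a small heat shock protein) were lower in adults by log2 -0.41 and -0.37 (adjusted p = 0.0016 and 0.00092). Neither was called in larvae, and neither was called in adults after centring on the median of all probe sets; a second l(2)efl probe set, 1626416_a_at, was lower in larvae (-0.36, adjusted p = 0.016), and another, 1635952_at, was higher there (2.60, adjusted p = 0.0014). DAAM, a formin that assembles thin filaments, went opposite ways: it read 1418, 1471 and 1310 against 1067, 1079 and 985.0 in adults (log2 0.42, adjusted p = 0.0057), and 330.5, 281.5 and 264.2 against 411.9, 369.7 and 349.0 in larvae (log2 -0.37, adjusted p = 0.012). Both DAAM calls held under the 3 other scalings. The capping protein subunit cpb was higher in adults (0.30, adjusted p = 0.0043), and cher, the filamin gene, was lower in larvae (-0.25, adjusted p = 0.039), a call lost with quantile normalization.

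In the calcium list 2 of 10 genes were higher and 1 lower in adults, and none was called in larvae. Orai (olf186-F), the store-operated calcium channel, read 1645, 1614 and 1502 in adult knockdown against 950.7, 978.2 and 922.3, a 1.67-fold rise (log2 0.74, adjusted p = 1.4e-05), and its second probe set gave 0.64. Stim, the store sensor that opens that channel, was higher by 0.25 (adjusted p = 0.0063). The sodium-calcium exchanger Calx was lower by log2 -0.50 (adjusted p = 0.0014), but not after centring on the median of all probe sets (-0.22). Both rises held under the 3 other scalings.

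Of 13 attachment genes, 1 was higher and 1 lower in adults and 2 were higher in larvae. In adults Ilk, the integrin-linked kinase, was higher by 0.24 and the integrin alpha subunit mew lower by log2 -0.55 (adjusted p = 0.021 and 0.00073). In larvae the tendon matrix protein Tsp (thrombospondin) rose by 0.57 and the integrin alpha subunit if by 0.26 (adjusted p = 0.011 and 0.028). The mew fall was not called after centring on the median of all probe sets (-0.27), nor was the if rise (0.17), which quantile normalization lost too. A second mew probe set, 1634290_a_at, was not called in adults (-0.33, adjusted p = 0.12).

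Of 11 muscle transcription, splicing and fusion genes tested, 3 were lower in adults and none was called in larvae. The fusion receptor rst (roughest) read 182.1, 210.2 and 151.7 in adult knockdown against 399.6, 360.1 and 364.0, a 2.08-fold fall (log2 -1.06, adjusted p = 0.00026) that held under the 3 other scalings. The FGF receptor htl (-0.56, adjusted p = 0.0064) and the Iroquois factor ara (-0.69, adjusted p = 0.050) were lower too, but neither was called with quantile normalization or after centring on the median of all probe sets. Ara read 34.9 to 48.8 in adult knockdown, close to background.

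Of 9 phosphagen and glycolysis enzymes, 1 was higher and 1 lower in adults, and 3 were higher and 2 lower in larvae. Eno, the enolase gene, was higher at both stages, by 0.16 in adults and 0.18 in larvae (adjusted p = 0.0082 and 0.0042); the larval call was lost after centring on the median of all probe sets (0.09). Arginine kinase (Argk1), which buffers ATP in muscle, was lower in adults by log2 -0.17 (adjusted p = 0.011), a difference that centring on the median of all probe sets turned to 0.11. In larvae Gapdh1 and the aldolase gene Ald1 were lower by log2 -0.20 and -0.27 (adjusted p = 0.0053 and 0.021), and Tpi was higher by 0.13 (0.016), which was not called with quantile normalization (0.053) or after centring on the median of all probe sets (0.04). Ald1 had a second probe set, 1633473_s_at, at -0.74 in adults, where its brightest was not called. The 1 cytoplasmic actin or myosin gene tested was not called at either stage.

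Some markers of other tissues moved with the knockdown beside the sarcomere genes. Their counts are to be read beside the shares of all probe sets called. These were 13.6% higher and 15.4% lower in adults, and 15.0% higher and 10.7% lower in larvae. The summed signal of the 23 sarcomere genes was 45523 to 50944 in adult knockdown and 53016 to 56445 in adult wild type, and 203743 to 213180 against 218731 to 228176 in larvae. Of 7 testis markers 6 were lower in adult knockdown, with sums of 8447 to 10002 against 13437 to 15172, and 4 were higher in larval knockdown, with sums of 1708 to 2539 against 1299 to 1507. Of 5 Malpighian tubule markers 4 were lower at both stages, with sums of 2059 to 2282 against 3838 to 4109 in adults and 3628 to 3864 against 5197 to 6470 in larvae. Neither the testis nor the Malpighian tubule sum overlapped between the genotypes at either stage, and the sarcomere sum did not either. The neuron and fat body sums, given below, did not overlap in adults. With centring on the median of all probe sets, the adult counts became 3 lower for testis, and 1 higher and 3 lower for Malpighian tubule; the larval counts were 4 higher and 4 lower as before.

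Fewer markers were called in the other lists, to be read beside the same shares. Of 8 neuron markers none was called in adults, with sums of 3229 to 3347 against 3721 to 3989, and 1 was higher and 1 lower in larvae, with sums of 3490 to 3877 against 3497 to 4061. Of 5 fat body markers 1 was higher and 1 lower in adults, with sums of 22933 to 24248 against 26712 to 28249, and 2 were lower in larvae, with sums of 25716 to 28609 against 26694 to 51966. Of 5 gut markers 1 was higher and 2 lower in adults, with sums of 38933 to 43447 against 42774 to 46276, and 2 were higher in larvae, with sums of 73941 to 84476 against 72612 to 76152. With centring on the median of all probe sets the gut counts became 3 higher and 1 lower in adults and 0 higher and 1 lower in larvae, and with quantile normalization 2 neuron markers were lower in adults. Whether these shares of tissue bear on the sarcomere falls was not tested.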

How the data were processed

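The deposited values are log2 MAS5 signals that the authors made from scanned arrays; the tool is named in the submitters' processing notes, without a version. The log2 scale was inferred: read that way, the linear mean, trimmed by 2% at each end, came to 500 on each array. No depth applies to arrays; 3 per group limit the precision. All 12 columns were tied to samples, and 0 were left over. After leaving out 183 control probe sets, those at or above the 40th percentile of their array on at least 3 arrays were tested (12827). All 12 arrays entered 1 limma 3.58.1 model (R 4.3.3, variance trend, Benjamini-Hochberg). A trial on simulated arrays planted changes larger than the genotype differences called for the brightest probe sets of sarcomere genes. It had no shift in array scale, so it does not bear on calls this small or on their dependence on scaling. Symbols came from the platform annotation, and synonyms from RefSeq.

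A gene was represented by its brightest passing probe set (32 of 36 passed, 23 genes). Others are given where direction or call differed most plainly, not for every comparison. Array values are given for genes called in a knockdown comparison, the 4 largest stage differences each way and the flight, jump and body wall classes; of each further list, up to 4 called genes with the smallest adjusted p per knockdown comparison. Other genes with array values were added for contrast after their values were seen. The members and lists were chosen with earlier results of these data known. Same-numbered arrays did not deviate together (r = -0.0889 to 0.0243), so replicate numbers do not pair them. Alternatives were normalization, filter, variance model, probe set choice, arrays fitted, a replicate block and each array left out.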

Additional observations from a re-analysis of the deposited data

Results flagged for a closer look

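The knockdown effect differed between the stages, by the test of that difference itself (adult effect minus larval effect on the log2 scale, limma, adjusted p under 0.05), in 6 sarcomere genes: Act88F (-0.90), Mlc2 (-0.40), Mlp60A (-0.35), Zasp66 (-0.30), Zasp52 (0.31) and TpnC73F (0.52). These 6 are 26.1% of the sarcomere genes tested, against 20.8% of all probe sets. The effect also differed in 10 of the genes named from the further lists. Those genes were named because they were called in a knockdown comparison, which enters this difference. Their count is therefore raised by the choice and cannot be set against the share of all probe sets. Among filament assembly and chaperone genes these were DAAM (0.79), cher (0.47), cpb (0.40), stv (-0.50) and l(2)efl (-0.28). In the other lists they were Orai (olf186-F, 0.64), Calx (-0.66), mew (-0.44), rst (-0.96) and htl (-0.78). Centring each array on the median of all its probe sets moved all such differences up, so those below 0 rest on the MAS5 scale more than those above it, and l(2)efl turned to 0.08. That centring ended the calls of all sarcomere genes below 0: Act88F (-0.54, adjusted p = 0.077), Mlp60A (0.01), Zasp66 (0.06) and Mlc2 (-0.03). It also ended those of l(2)efl, stv, mew, Calx, htl (-0.42, adjusted p = 0.10) and rst (-0.59, 0.064). Quantile normalization ended those of l(2)efl (-0.23, 0.11) and htl (-0.46, 0.092). The second probe sets of Orai (0.40, adjusted p = 0.11), mew (-0.20, 0.56) and l(2)efl (0.13, 0.53) were not called either. Nor was Zasp66 probe set 1629383_a_at, and the mean of all probe sets turned Mlp60A to 0.24. Leaving out single arrays ended the calls of Mlc2, TpnC73F, Zasp52 and Zasp66, as given above. Larval signals of Act88F lay near background.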

How the results depend on the processing

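Across alternatives the stage comparisons kept 5 higher and 18 lower genes in both genotypes, except 6 and 17 with the mean of all probe sets. For the knockdown, genes called higher in adults, 0 as reported, became 2 with quantile normalization, 5 with centring on the median of all probe sets and 2 with centring on tested probe sets (chosen after seeing the data); genes called lower, 9, became 1 and 5 with the latter pair. In larvae 1 higher became 0 with either centring, the mean of all probe sets or larval arrays alone, and 2 with the stricter filter, while 4 lower became 9 and 7 with the centrings. For the adult minus larval effect, 2 above 0 became 12 with centring on all probe sets, 1 with no filter and 0 with no variance trend, while 4 below 0 became 0 and 2 with the centrings and 2 with no variance trend or the mean of all probe sets. Centring shifts every gene of an array alike; the cause of the other changes was not tested.

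Centring on all probe sets reversed the adult differences of Prm (0.11), Tm2 (0.10), bt (0.10) and Mlp60A (0.12), and the adult minus larval differences of Prm (0.28), Mf (0.28), Act87E (0.29), Tm2 (0.22), up (0.36), Zasp66 (0.064) and Mlp60A (0.013). The mean of all probe sets reversed Mlp60A (0.44 in adults, 0.24 adult minus larval) and the stage difference of Strn-Mlck (0.74 in wild type, 1.00 with the knockdown).

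Leaving out 1 array gave 0 to 1 higher and 6 to 9 lower in adults, 0 to 2 and 4 to 6 in larvae, 0 to 2 above and 2 to 5 below 0 for the adult minus larval effect, and 5 and 18 for each stage comparison. With the replicate block, whose numbers do not pair these arrays, 8 genes were lower in adults, Prm being lost (adjusted p = 0.057), and 1 was above 0 in the adult minus larval effect, Zasp52 being lost (0.057). Signals near the 40th percentile limit fln, Act79B, TpnC4, TpnC41C and Act88F in larvae.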
